A study of Mus musculus with 4 samples.

Results

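The genes described here are 5 STAT transcription factors (Stat2, Stat3, Stat5a, Stat5b and Stat6) and 4 SOCS family inhibitors (Socs1, Socs2, Socs3 and Cish), chosen by gene symbol. All 9 were found among the 19938 genes that could be named on the arrays, and all 9 stood above the median of the named genes, 6.66 on the log2 scale, on every array. Total RNA of mouse dendritic cells, grown from whole bone marrow for 10 days with 20 ng/mL GM-CSF, was hybridised to Affymetrix Mouse Gene 1.0 ST arrays. Cells of all 4 conditions were electroporated with an siRNA on day 10, either a control siRNA (si-Ctrl) or an siRNA against the orphan nuclear receptor NR4A3 (si-NR4A3), and 24 hours later either received LPS, an endotoxin of bacteria that TLR4 detects, at 100 ng/mL for 24 hours, or stayed unstimulated. Each condition had 1 array, so a difference between 2 arrays is a value without a replicate check. On the mouse strain the labels conflict, with C57BL/6 in the sample characteristics and BALB/c in the protocol for growing the cells, and they do not give the age of the mice or say whether the cells were pooled over animals. An untransfected culture was not analysed here.

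STAT proteins lie inactive in the cytoplasm until a Janus kinase (JAK) bound to a cytokine receptor phosphorylates them. They then pair, enter the nucleus and switch on target genes. Among the earliest targets are the SOCS genes, whose proteins bind the receptor or the kinase and shut the signal down, so that a high SOCS transcript level is often read as a trace of recent cytokine signalling. In dendritic cells STAT5 carries the GM-CSF signal that these cultures depend on, STAT2 carries type I interferon signals that follow LPS, STAT3 carries signals of interleukins 6 and 10, and STAT6 those of interleukins 4 and 13. The arrays measure transcripts and hold no information on phosphorylation.

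Levels of Nr4a3 itself were reduced by the siRNA against it with and without LPS. The gene stood at 11.21 in unstimulated control cells against 7.15 with NR4A3 siRNA, and at 11.77 against 9.39 with LPS (average effect -3.22 ± 0.36, limma adjusted p = 0.015). Markers of the labelled cell type were present in part: Itgax, H2-Ab1 and Cd74 were at 12.27 or higher on all arrays, whereas Flt3 stayed below 6.66 throughout and Zbtb46 reached 7.46 at most. The 6 macrophage markers measured all passed 6.66, with Cd68 and Csf1r at 12.04 or higher. Below 6.66 on all arrays were 6 of 7 neutrophil, 4 of 5 T cell, 4 of 4 B cell, 5 of 5 NK cell, 5 of 6 mast cell and basophil, 2 of 3 eosinophil and 2 of 2 erythroid markers. The exceptions were S100a8 (up to 8.49), Cd5 (7.40), Gata2 (7.49) and Siglecf (10.21). Of the 19938 named genes, 10592 reached 6.66 on at least 1 array, so these counts do not show that such cells were absent.

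LPS raised 6 of the 9 genes, led by Socs1, Socs3 and Stat2, and lowered none. The average effect of LPS over both siRNAs passed the test for Stat2, Stat3, Stat5a, Socs1, Socs3 and Cish, and missed it for Stat5b, Stat6 and Socs2 (limma, an additive fit of siRNA and LPS to all 4 arrays, adjusted p below 0.05). Of the 10592 genes tested, 15.6% were higher and 14.4% lower by the same rule. At least 2-fold higher with LPS were 4 of the 9 genes under either siRNA (Stat2, Stat5a, Socs1 and Socs3), where the background was 5% of 10346 genes with control siRNA and 5.31% of 10353 with NR4A3 siRNA. When quantile normalization was repeated over the named genes, Stat5a came to 0.94 (log2) with control siRNA, under 2-fold, which left 3 of the 9. The median LPS difference of the 9 genes was 0.85 with control and 0.91 with NR4A3 siRNA (log2), beside medians of -0.02 and 0.02 over all genes. The direction of these genes was already known from earlier results of these arrays.

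Levels in bulk RNA cannot tell fewer cells of a type from less RNA per cell, and marker genes of several cell types moved with LPS as well. Of the 6 macrophage markers tested, 3 rose and 1 fell, and the mean level of the list went from 11.33 to 11.92 with control siRNA and from 11.42 to 12.15 with NR4A3 siRNA. Of the 7 dendritic cell markers tested, 1 fell (Itgax, by -0.39) and 0 rose. The single T cell marker above 6.66 on any array, Cd5, and the single such eosinophil marker, Siglecf, changed too, by 0.90 and -1.36. Cd5 was above 6.66 only on the LPS arrays, so it entered the test through them. Siglecf differed by -2.16 with control and by -0.55 with NR4A3 siRNA. The part of these shifts in the STAT and SOCS values was not tested.

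**Figure D1:**
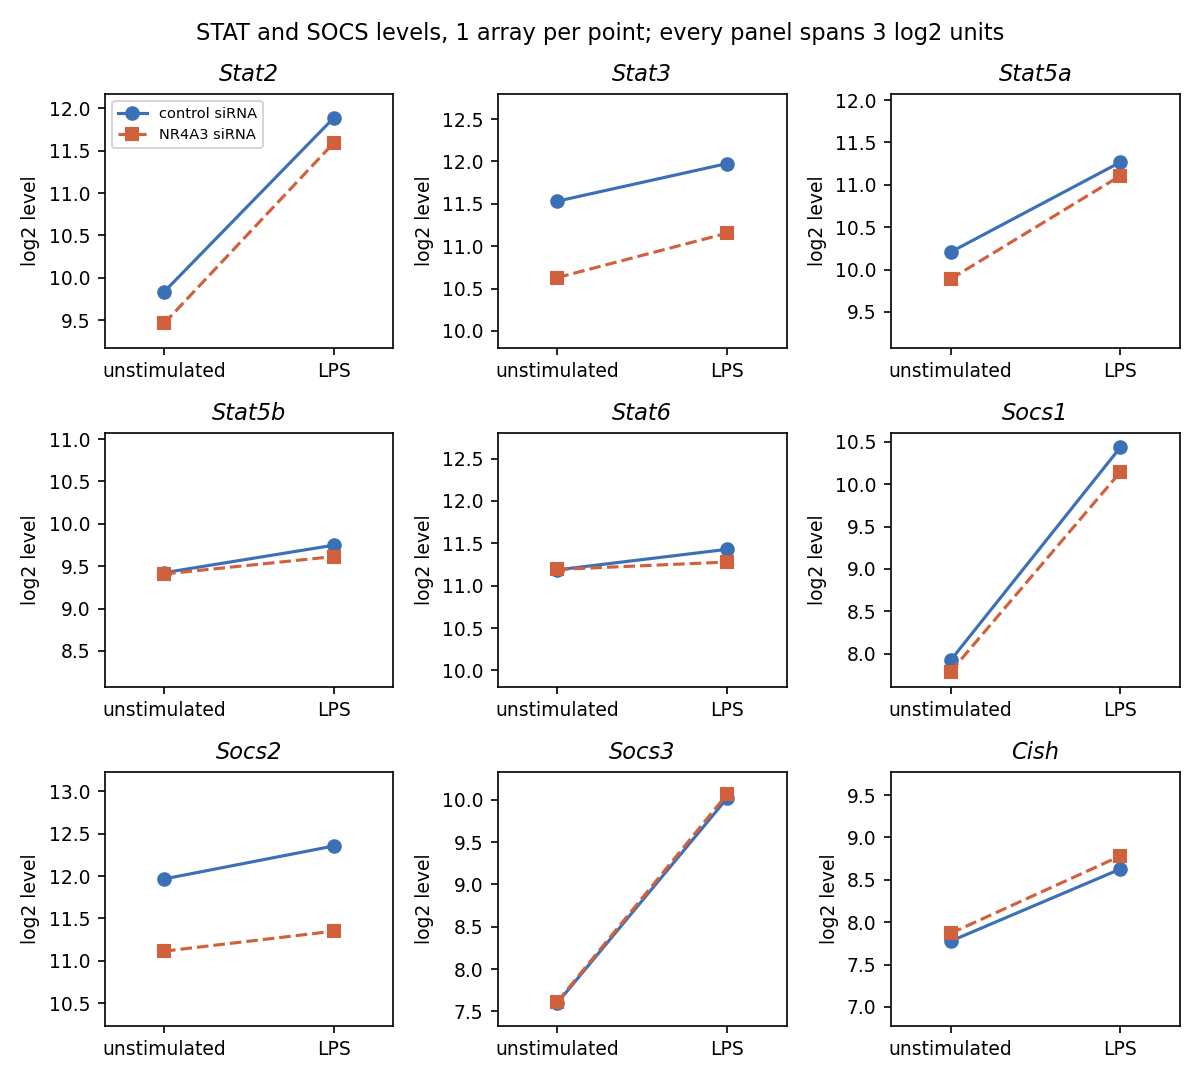
Log2 level of each STAT and SOCS gene (y axis, each panel spanning 3 log2 units around the gene's own midpoint) without and with LPS (x axis); each point is 1 array, blue circles are control siRNA and orange squares NR4A3 siRNA. Socs1, Socs3 and Stat2 have the steepest lines under either siRNA, while Stat3 and Socs2 show a gap between the siRNAs in both states.

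Among the 5 STAT genes chosen, Stat2, which transmits type I interferon signals, differed most with LPS. Its level was 9.83 unstimulated and 11.89 with LPS under control siRNA, and 9.46 and 11.59 under NR4A3 siRNA. Both LPS arrays lay far above both unstimulated ones, 4.15-fold under control and 4.38-fold under NR4A3 siRNA. The average effect was 2.09 ± 0.10 (log2, standard error of the fit, limma adjusted p = 1.1e-04). Such standard errors lean largely on a prior variance shared by all genes tested, not on the spread of the gene itself. With control siRNA Stat2 ranked 164th from the highest of 10346 genes.

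Stat5a, which transmits GM-CSF signals, stood at 10.21 and 11.27 without and with LPS under control siRNA and at 9.89 and 11.11 under NR4A3 siRNA. The LPS arrays were again the higher pair, with an average effect of 1.14 ± 0.10 (limma adjusted p = 8.6e-04). Its close relative Stat5b did not follow: its levels were 9.42 and 9.75 with control siRNA and 9.41 and 9.61 with NR4A3 siRNA, an average effect of 0.27 with a 95% interval from 0.02 to 0.51 (limma adjusted p = 0.098). The difference between the paralogs was not tested, and probes of such similar genes could share signal. Stat5b, Stat5a and Stat3 lie next to each other on mouse chromosome 11 in the RefSeq annotation.

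Stat3, the transducer of interleukin-6 and interleukin-10 signals, was higher with LPS by a smaller amount, from 11.53 to 11.98 with control siRNA and from 10.63 to 11.15 with NR4A3 siRNA. The average effect of 0.48 ± 0.10 passed the test (limma adjusted p = 0.016) and fell just outside it, at 0.34 and adjusted p = 0.0504, when quantile normalization was repeated over the named genes. Stat6, the transducer of interleukin-4 signals, had the narrowest range of the 9 genes. It stood at 11.19 and 11.43 without and with LPS under control siRNA and at 11.19 and 11.28 under NR4A3 siRNA, and the 95% interval of its average effect ran from -0.09 to 0.42.

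The SOCS genes ranged from large to small LPS differences. Socs1, which blocks JAK activity directly and restrains interferon and interleukin-12 signals, stood at 7.92 and 10.43 without and with LPS under control siRNA and at 7.79 and 10.14 under NR4A3 siRNA. This was 5.71-fold and 5.13-fold higher with LPS, an average effect of 2.44 ± 0.10 (limma adjusted p = 7.4e-05), and the 95th highest of 10346 differences with control siRNA. Socs3, which binds the gp130 receptor chain and limits interleukin-6 signals, was at 7.60 and 10.02 with control siRNA and at 7.61 and 10.06 with NR4A3 siRNA. The siRNAs gave nearly the same pair of levels, and LPS differences of 5.34-fold and 5.46-fold, with an average effect of 2.43 ± 0.10 (limma adjusted p = 7.1e-05).

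Socs3 also has a dimmer probe set, at 6.31 and 7.09 with control siRNA and at 6.46 and 7.19 with NR4A3 siRNA, so its LPS differences of 0.78 and 0.73 had the same direction and a smaller size. The mean of both probe sets gave an average effect of 1.59. The fold for Socs3 thus depends on the probe set, and its direction did not.

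Cish, the founding member of the family and a classical STAT5 target, rose less, from 7.78 to 8.63 with control siRNA and from 7.87 to 8.78 with NR4A3 siRNA. These are 1.80-fold and 1.88-fold differences, with an average effect of 0.88 ± 0.10 (limma adjusted p = 0.0019). Socs2, an inhibitor of growth hormone and STAT5 signals, stood at 11.97 and 12.36 with control siRNA and at 11.11 and 11.35 with NR4A3 siRNA. Its average LPS effect was 0.31, with a 95% interval from 0.06 to 0.56, and missed the threshold (limma adjusted p = 0.067), although it passed with an intensity trend in the prior variance (adjusted p = 0.036).

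**Figure D2:**
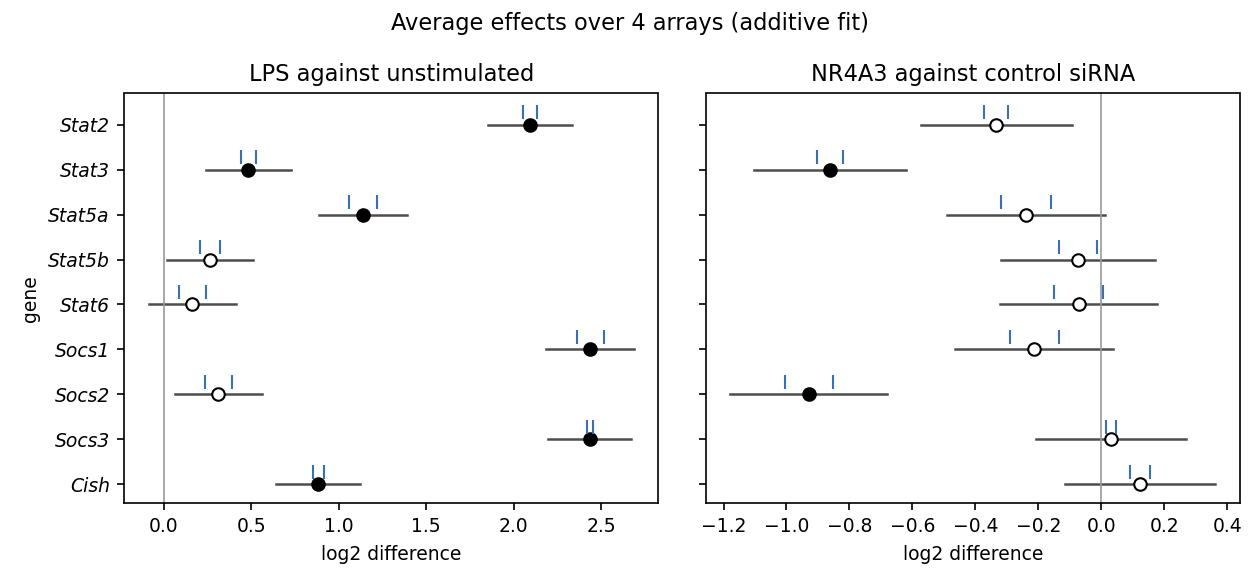
Average log2 difference of each gene for LPS against unstimulated (left) and NR4A3 against control siRNA (right) from the additive fit to 4 arrays; circles are the average effect, filled where the adjusted p was below 0.05, horizontal lines its 95% interval, and the blue ticks above each line the differences of the single pairs of arrays. For LPS 6 circles are filled, all to the right of 0, and for NR4A3 siRNA only those of Stat3 (-0.86) and Socs2 (-0.93), both to the left.

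Of the 9 genes, silencing of NR4A3 went with lower levels of 1 STAT and 1 SOCS gene, Stat3 and Socs2. Both were at least 1.5-fold lower in unstimulated and in LPS-treated cells, and they were the only 2 of the 9 genes to pass the test on the average effect of silencing; 0 of 9 passed in the other direction. Over all genes tested, 3.58% were lower and 1.98% higher with NR4A3 siRNA by that test. At least 1.5-fold lower were 4.69% of 10257 genes without LPS and 4.73% of 10210 with LPS. With 2 of 9 genes, the share is above that background, but the genes were picked with earlier results of these arrays known.

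Stat3 stood at 11.53 with control and 10.63 with NR4A3 siRNA in unstimulated cells, and at 11.98 and 11.15 with LPS. The NR4A3 siRNA array was the lower of each pair, and with NR4A3 siRNA the LPS array remained below the unstimulated control array. The level was 1.87-fold lower without LPS and 1.77-fold lower with it, an average effect of -0.86 ± 0.10 (limma adjusted p = 0.015). Across the 7 alternatives to the fit and the fit itself, adjusted p lay between 0.0074 and 0.040. Without LPS Stat3 ranked 219th from the lowest of 10257 genes.

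Socs2 showed a gap of similar size. It stood at 11.97 with control and 11.11 with NR4A3 siRNA without LPS, and at 12.36 and 11.35 with LPS. The siRNA separated the 4 arrays more than LPS did, with both NR4A3 siRNA arrays below both control arrays. The fold was 1.81 without and 2.01 with LPS, the average effect -0.93 ± 0.10 (limma adjusted p = 0.013, between 0.0060 and 0.039 over the same settings). A dimmer probe set of Socs2 held 8.89 and 8.19 without LPS and 9.28 and 8.48 with it, differences of -0.70 and -0.80 between the siRNAs. Averaging both probe sets brought the difference under LPS to -0.90, which is under 2-fold.

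Markers of cell type were also set against silencing. Among the dendritic cell markers, Ccr7, a receptor of mature cells, was 11.6-fold lower with NR4A3 siRNA without LPS and 1.67-fold lower with it. The mean level of the 8 dendritic cell markers was 10.29 with control and 9.69 with NR4A3 siRNA without LPS, and 10.26 and 10.04 with LPS. Without LPS Ccr7 differed by -3.53 (log2), and the other dendritic cell markers lay between -0.76 (Flt3, below 6.66) and 0.12 (Batf3). Most of the fall in the mean without LPS thus came from Ccr7. The mean level of the 6 macrophage markers was 11.33 and 11.42 without LPS, and 11.92 and 12.15 with LPS. Of the markers tested, 0 of 7 and 0 of 6 passed the test for silencing in either direction. Over all genes tested, 3.58% were lower and 1.98% higher. A gap that differs between the states widens the standard error, as for Ccr7 (average effect -2.13 ± 0.59). These counts therefore do not show that the markers were unchanged. The part of the marker shifts in the Stat3 and Socs2 values was not tested.

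The other 7 genes did not pass the test for silencing. Stat2 came closest, at 1.29-fold lower without LPS and 1.23-fold lower with LPS, an average of -0.33 with a 95% interval from -0.57 to -0.09 (limma adjusted p = 0.11). Stat5a averaged -0.24 and Socs1 -0.21, with intervals from -0.49 to 0.01 and from -0.46 to 0.04. Stat5b and Stat6 averaged -0.07 each, with intervals from -0.32 to 0.17 and from -0.32 to 0.18. Cish averaged 0.12 (interval from -0.12 to 0.36) and Socs3 0.03 (from -0.21 to 0.27). These intervals leave room for differences of up to 0.57 in size, so they do not show that the levels were equal.

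The LPS differences of the 9 genes lay close together under the siRNAs in log2 units, though not always in proportion. That of Stat6, for example, was 0.24 with control and 0.09 with NR4A3 siRNA. LPS with NR4A3 siRNA minus LPS with control siRNA ran from -0.16 (Socs1) to 0.16 (Stat5a) on the log2 scale, with 5 genes above and 4 below 0. This difference of differences uses all 4 arrays and has no test. Across 10592 genes the median size of this value was 0.15 and its 95th percentile 0.59. All 9 genes lay inside the latter, as most genes do by definition, so this is not particular to them. Stat4, which transmits interleukin-12 signals, lay outside: its LPS difference was 1.87 with control and 3.49 with NR4A3 siRNA, starting from 9.94 and from 5.50, the latter below 6.66.

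The genes whose levels followed each member most closely were found by the root mean square distance between profiles over the 4 arrays, each profile centred on its own mean, among 10591 genes. Members with a span of at least 1 log2 unit were searched, which left out Stat5b and Stat6. Nearest to Stat3 was Nfil3 (distance 0.02 log2), a transcription factor gene, with levels of 9.77 and 10.25 without and with LPS under control siRNA and 8.86 and 9.37 under NR4A3 siRNA. Gins3 (0.03) and Tyms (0.05), which act in DNA replication and thymidylate synthesis, came next. Nearest to Socs2 were Marf1 (0.03), Tmem120b (0.03) and Laptm4b (0.04). These profiles share the pattern of a gap between the siRNAs in both states.

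The remaining members searched had other neighbours. Nearest to Socs1 were Nt5c3 (0.01), Trim21 (0.05) and Ifih1 (0.06), the last of these the gene of the cytosolic RNA sensor MDA5. Nearest to Stat2 were Cflar (0.04), an inhibitor of caspase 8, Mov10 (0.07) and Pmepa1 (0.07). Nearest to Socs3 were Gypc (0.04), Adhfe1 (0.04) and Antxr1 (0.06). Nearest to Stat5a were Icam1 (0.03), an adhesion molecule of activated cells, Setdb2 (0.04) and Cox17 (0.04), and nearest to Cish were Tm9sf4 (0.03), the proteasome subunit gene Psma5 (0.03) and Ogfr (0.03). With 4 arrays, many genes have alike profiles, and the distances are a description.

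Promoter windows of 8 of the 9 genes were matched by symbol in RefSeq (GRCm38.p6), each covering 250 bases before to 50 bases after a transcript start, and Socs2 had none. The 8 genes had 10 windows. The STAT dimer element TTCNNNGAA, which reads the same on both strands, was found in 2 of these 10 windows, and in 8.30% of 32851 windows of all genes. The interferon response core GAAANNGAA, searched on both strands, was also found in 2 of 10, and in 8.56% of windows. A wider STAT6 form, TTC and GAA with 4 bases between them, was found in 1 of 10, and in 6.95% of windows. The matches lay in 4 genes, all among those that LPS raised, which also included Stat3 and Stat5a without a match. Of the genes that missed the LPS test, only Stat5b and Stat6 had a window, too few for a comparison. A link between matches and LPS was not tested. The stretches below were picked because they hold the matches. They run 5′ to 3′ on the gene's strand with the matches in capitals.
Cish, chr9:107296624-107296683, + strand: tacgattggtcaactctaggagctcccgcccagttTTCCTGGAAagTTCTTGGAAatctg
Socs3, chr11:117969501-117969530, - strand: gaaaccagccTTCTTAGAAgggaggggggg
Socs1, chr16:10785587-10785646, - strand: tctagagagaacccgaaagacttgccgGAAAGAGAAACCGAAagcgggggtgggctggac
Stat2, chr10:128270253-128270312, + strand: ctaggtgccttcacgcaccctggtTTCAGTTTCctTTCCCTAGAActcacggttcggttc

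Cish held a pair of STAT elements at bases 1 to 9 and 12 to 20 from its transcript start, and Socs3 held 1 element at bases -154 to -146. The RefSeq models of Socs3 include a longer one that spans this stretch. Socs1 held 2 interferon response cores that overlap, at -83 to -75 and -77 to -69, and Stat2 held 1 at -221 to -213 on the opposite strand, followed by the wider STAT6 form at -210 to -201. No window of Stat3, Stat5a, Stat5b or Stat6 held any of the 3 motifs. A match of letters does not show a bound site, and binding was not measured.

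**Figure D3:**
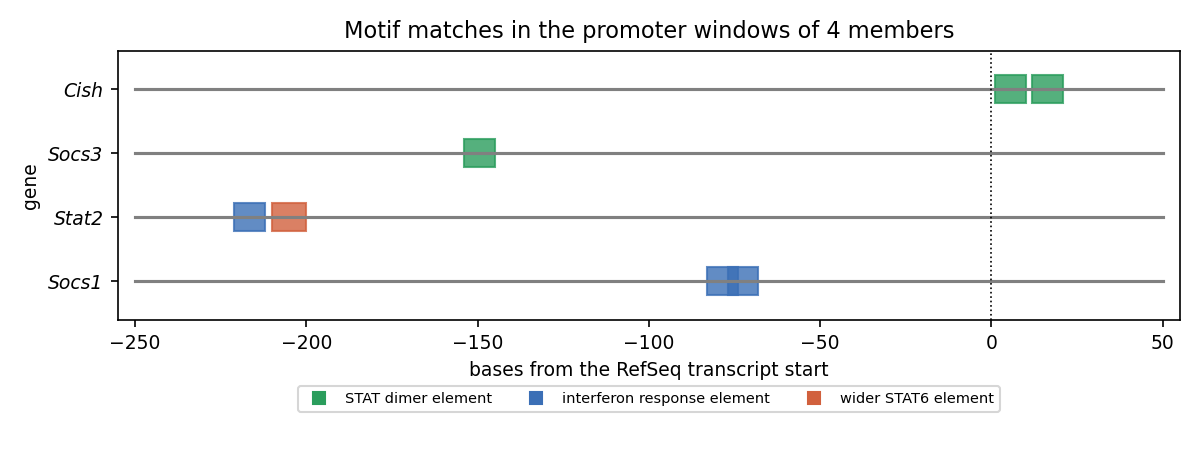
Position of each motif match (coloured boxes, drawn to scale) in the promoter windows of Cish, Socs3, Stat2 and Socs1; the x axis gives bases from the RefSeq transcript start, marked by the dotted line, and grey lines show the 300 bases searched. Cish has its matches just after the start, at bases 1 to 20, and the other genes have theirs before it.

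The rest of the family moved in mixed directions. Of 5 other STAT and SOCS genes measured, LPS raised 1 and lowered 1 in the additive fit. Their median was 0.04, beside 0.00 over all genes. For the counts of this and the following lists, the shares over all genes tested were 15.6% higher and 14.4% lower with LPS. For silencing the shares were 3.58% lower and 1.98% higher. Socs6, an inhibitor of receptor tyrosine kinase signals, was the one that fell, from 9.91 to 8.62 with control siRNA and from 9.89 to 8.80 with NR4A3 siRNA (average effect -1.19 ± 0.10, limma adjusted p = 7.9e-04). Stat4 rose with LPS and was the one gene of the list that was lower with silencing, by an average of -3.63 ± 0.35 (limma adjusted p = 0.011). Socs4, Socs5 and Socs7 had LPS effects between -0.06 and 0.06 and silencing effects between -0.20 and 0.18, none of which passed the test.

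Upstream of the STATs, 2 of 3 Janus kinases measured rose with LPS, Jak2 and Tyk2, and 1 was lower with silencing. Tyk2, the kinase of interferon and interleukin-12 receptors, stood at 9.28 and 8.58 with control and NR4A3 siRNA without LPS and at 9.66 and 9.11 with LPS, an average silencing effect of -0.62 ± 0.10 (limma adjusted p = 0.032). Jak2, which serves the GM-CSF receptor, stood at 11.38 with control and 9.31 with NR4A3 siRNA without LPS, a 4.18-fold difference, but at 11.99 and 11.62 with LPS. Its unstimulated NR4A3 siRNA array stood apart from the other 3, and the average silencing effect of -1.22 ± 0.37 did not pass (limma adjusted p = 0.11). Jak1, at 11.40 to 11.69, passed neither test.

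Of 22 receptor chains tested, LPS raised 6 and lowered 5, and silencing lowered 3 and raised 0, with medians of 0.03 for LPS and -0.10 for silencing beside 0.00 and 0.03 over all genes. Il2ra, the interleukin-2 receptor alpha chain and itself a STAT5 target, rose with LPS from 9.55 to 11.99 with control and from 7.72 to 11.06 with NR4A3 siRNA, and its average silencing effect was -1.38 ± 0.21 (limma adjusted p = 0.028). Il15ra and Il13ra1 were the others that were lower with silencing, by -0.74 each. Il6st, the gp130 chain that activates STAT3, fell with LPS from 11.96 to 10.48 with control siRNA and from 11.31 to 10.27 with NR4A3 siRNA, opposite in direction to Stat3 and Socs3. Ifngr1 fell as well, by -1.34 on average. Csf2rb, the signalling chain of the GM-CSF receptor, was named after its values were seen, and lay between 13.47 and 13.53 on all 4 arrays.

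Cytokines that use the pathway were in part below the filter: 15 of 24 stayed under 6.66 on all arrays. Of the 9 tested, LPS raised 7 and silencing lowered 2, with medians of 1.32 and -0.29. A gene was tested if any array reached 6.66, and Il6, Il12a and Lif did so only with LPS. The LPS count and LPS median of this list were therefore in part set by the filter. Lif entered through the control siRNA LPS array alone (7.07, against 6.31 with NR4A3 siRNA and LPS), so the filter bears on the silencing median too. Il6, the STAT3-activating cytokine, stood at 5.68 and 11.23 without and with LPS under control siRNA and at 5.46 and 10.28 under NR4A3 siRNA. Both unstimulated levels lay below 6.66, so the size is approximate. The cytokines lower with silencing were Il12b (-2.05) and Il15 (-0.66). Il12b stood at 6.18 on the unstimulated NR4A3 siRNA array, below 6.66, so its size is approximate too. Of 13 inhibitors outside the SOCS family, LPS raised 4 and lowered 0, beside 15.6% higher and 14.4% lower over all genes tested. Silencing moved 0 of them, beside 3.58% lower and 1.98% higher. Usp18, which blocks the interferon receptor, led them at 2.24 for LPS and -0.06 for silencing.

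Lists of genes known as STAT targets differed in direction. The lists overlap, with Il4ra in those of STAT3 and STAT6 and Pim1 in those of STAT3 and STAT5. Of 11 STAT3 targets tested, 8 rose with LPS and 4 were lower with silencing (Fgl2 by -0.97, Nfil3 by -0.89, Etv3 by -0.71 and Bcl6 by -0.62), with a silencing median of -0.33 beside 0.03 over all genes. Of 10 STAT6 targets, LPS lowered 6 and raised 2, with Mrc1 (-3.92), Retnla (-2.38) and Pparg (-2.19) the lowest, while silencing raised 4 (Retnla by 0.98, Mgl2 by 0.83, Pparg by 0.71 and Mrc1 by 0.63) and lowered Ccl24, by -0.95. Of 9 STAT5 targets, LPS raised 5, among them Ccnd2 (2.70), and lowered 2, one of them Myc (-1.72), and silencing lowered Il2ra alone. The silencing median of the STAT5 targets was -0.32, nearly that of the STAT3 targets, and that of the STAT6 targets was 0.14.

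Calls for silencing in these lists depended on the setting. Of 16 list genes past the test, 5 stayed past it under every alternative run (Stat4, Nfil3, Retnla, Mgl2 and Ccl24). Tyk2, Il2ra, Il15ra, Il13ra1, Il12b, Il15, Fgl2, Etv3, Bcl6, Mrc1 and Pparg missed it under at least 1, with adjusted p (limma) of up to 0.10. For LPS, 41 of 46 kept their call, and Jak2, Ptpn1, Ptpn2, Pias3 and Ccl24 did not, with adjusted p (limma) of up to 0.16.

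**Figure D4:**
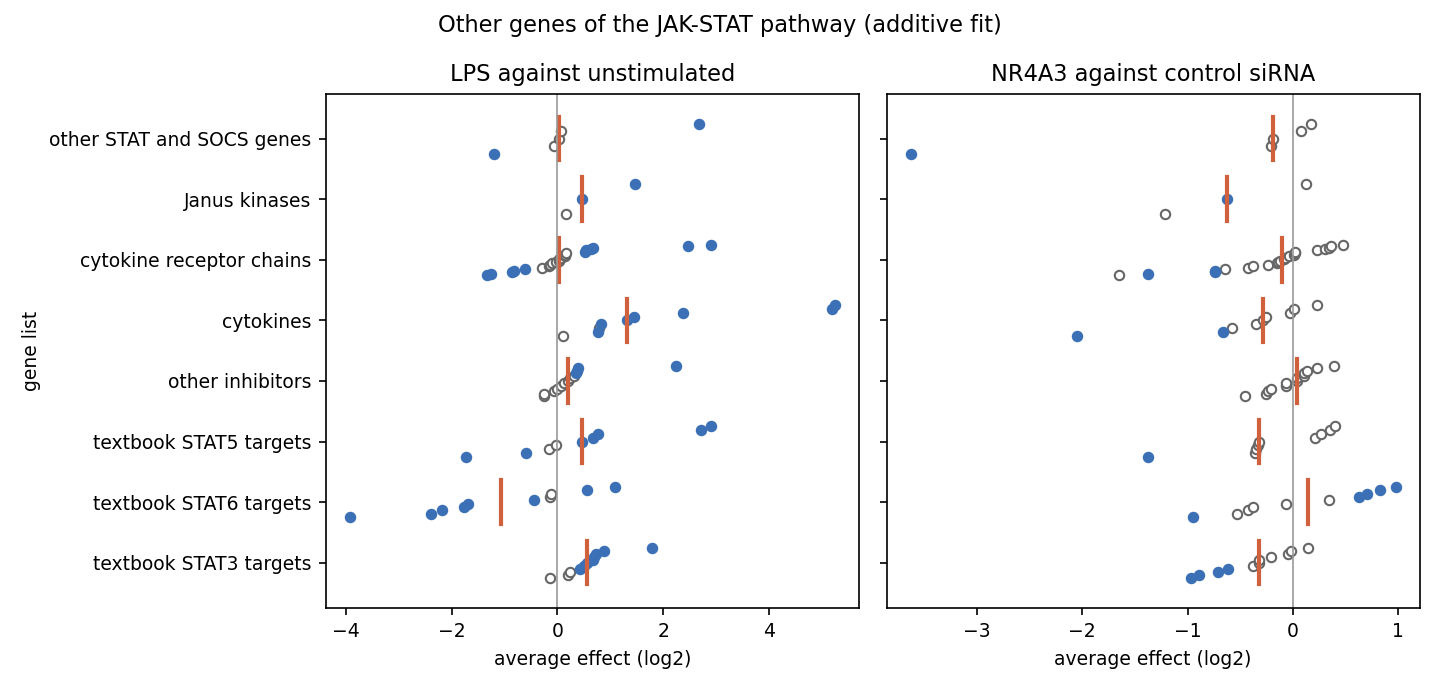
Average effects (log2, additive fit to 4 arrays) of LPS (left) and NR4A3 siRNA (right) for the other genes of the pathway, by gene list; each circle is a gene, filled where the adjusted p was below 0.05, and orange bars are list medians. For LPS the targets of STAT6 spread from -3.92 to 1.09, and all 8 filled circles of the STAT3 targets lie to the right of 0.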

How the data were processed

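Per the labels, the authors deposited log2 values from RMA, a procedure that includes quantile normalization. Affymetrix Expression Console 1.1 appears in the submitters' processing notes. As for filters and genome version, these were not given in the sources used here. Quantile normalization hides a shift of most genes in 1 direction. Of 28856 probe sets, 21789 had 1 symbol in the platform annotation (1621 had several, 5446 none). A gene was taken at its probe set with the highest mean. The filter on dim genes was the median of the named genes, 6.66. Pairs of arrays were compared by their log2 difference. Average effects come from limma 3.58.1 in R 4.3.3 (lmFit and eBayes on siRNA and LPS, 1 residual degree of freedom, prior of 4.76), with Benjamini-Hochberg adjustment over 10592 genes and a threshold of 0.05. The residual holds the difference of the LPS effects and array noise. Standard errors and intervals lean largely on the prior shared by all genes. Over the genes tested, the standard error had a median of 0.101 and a minimum of 0.096. The labels do not say that arrays came from separate cultures, so p-values cover the spread between these arrays only. The fit was run on simulated data with independent noise and an LPS change in some genes. These data held no silencing effect and no difference of the LPS effects, so they do not check the silencing calls. Promoter sequences are from RefSeq (GRCm38.p6). The 9 genes and the lists of pathway genes were chosen with earlier results of these data known. Genes named besides them are Nr4a3, the other STAT and SOCS genes, for each pathway list the 3 largest differences of each pair of arrays past the filter, and the 3 nearest profiles of each member spanning at least 1; other list genes are named where a count is broken down, and markers where cell type is described. The results of 1 gene list are not reported here. Alternatives were median centring, repeated quantile normalization, cyclic loess, the mean of probe sets, other filters and folds, and an intensity trend.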

Additional observations from a re-analysis of the deposited data

Results flagged for a closer look

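Il12rb2, whose protein joins STAT4 to the receptor of interleukin-12, moved in opposite directions with LPS under the siRNAs. It was higher by 0.81 (log2) with control siRNA, from 9.45 to 10.25, and lower with NR4A3 siRNA, from 8.71 to 7.68, a difference of -1.03. Each direction rests on 1 pair of arrays, and the difference between them was not tested. Each of the 9 STAT and SOCS genes had LPS differences above 0 under either siRNA in the deposited values, although Stat6 with NR4A3 siRNA, at 0.09, came to -0.06 when quantile normalization was repeated over the named genes.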

How the results depend on the processing

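No paired analysis was possible because each condition has 1 array, and leaving out an array leaves no residual degree of freedom. Of 126 values of single members under alternatives to the fit, 123 kept direction and side of the threshold. Stat3 and Socs2 stayed past it for silencing in every setting. The silencing effect of Socs3, 0.03, turned to -0.0080 under cyclic loess and passed the test in neither. Of 180 differences between arrays, 12 moved by more than the standard error of the fit, mostly under repeated quantile normalization. For silencing without LPS, 0 members were past 2-fold and 2 past 1.5-fold; with LPS, 1 was past 2-fold, 2 past 1.5-fold, and 0 past 3-fold or with the mean of probe sets. Genes past the fold, 913 and 831 for LPS with control and NR4A3 siRNA, numbered 2035 and 1782 at 1.5-fold and 382 and 358 at 3-fold. For silencing without and with LPS, 197 and 219 became 647 and 864 at 1.5-fold and 68 and 51 at 3-fold, and 119 without LPS at the 75th percentile filter. In the fit, 589 genes passed for silencing, against 370 with repeated quantile normalization, 266 with cyclic loess and 156 with no filter on dim genes. The number of arrays limits the precision.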
